A study of Danio rerio with 10 samples.

Results

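The *hairy*-related genes of the zebrafish segmentation clock are described here in sorted cells that carried, or did not carry, a caged antisense oligonucleotide against *spadetail*. The genes were taken by symbol, *her1*, *her7*, *her11*, *her12*, *her15.1*, *her15.2*, *her4.1* and *hes6*, and matched to transcript records through RefSeq accessions. Of the 8 symbols, 7 matched a record among the 14720 of the count table. The accession of *her15.1* matched none and that gene was not analysed here. All 7 matched records passed the filter on low counts, which left 6570 records for testing.

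All embryos were of the wild-type AB strain. The control group was injected with the tracer cFD, a caged fluorescein-dextran, and the spt_cMO group with cFD together with a caged morpholino against *spadetail*. Morpholinos are synthetic antisense molecules that block a chosen transcript, and the cage keeps this one inert until light removes it. The target gene is now named *tbx16* and encodes a T-box factor needed by mesoderm cells on their way to the somites. At 6 hours of development, light of 360 nm through a 100 µm diaphragm freed the caged molecules in progenitors of the ventral somites of both groups. Cells that fluoresced were sorted at 9 hours, late in gastrulation and before the first somite, and each group gave 5 libraries, numbered 1 to 5 and called biological replicates in the labels. Because the controls held tracer and no morpholino, an effect of losing *spadetail* and an effect of carrying a morpholino cannot be told apart.

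Somites are cut from the presomitic mesoderm in time with an oscillator of gene expression. In zebrafish its core is a negative feedback loop in which basic helix-loop-helix repressors of the Hairy and Enhancer of split family, Her1 and Her7, shut off their own genes, while Notch signals between neighbouring cells keep the cycles in step. Several further *her* genes cycle with them, and many genes of the family are also direct Notch targets in the nervous system.

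Library totals ran from 2036973 to 9374914 counts of 3′ tags, made by CEL-seq, a method that reads near the 3′ end of each transcript. Values are given as CPM, counts scaled to a common library size by the trimmed mean of M-values (TMM), and 3 counts were worth 0.318 CPM at the greatest depth and 1.47 CPM at the least. The shallowest library, spt_cMO replicate 2, also stood apart on the first principal component of all tested records, at -0.826 against -0.172 to 0.343 in the other libraries. The transcript of the target, *tbx16*, averaged 386 CPM with an SD of 45.1 in control and 526 CPM with an SD of 100.3 in spt_cMO, a difference that did not pass (adjusted p = 0.0897) and did with the replicate number in the model (adjusted p = 0.0172). A morpholino need not lower its target's transcript. The sorted cells held the transcripts of the paraxial mesoderm factors *msgn1* and *tbx16l* in every library. Control libraries held 4633 to 6650 CPM and 668 to 841 CPM of them, and spt_cMO libraries 1382 to 2820 CPM and 378 to 534 CPM. Other paraxial factors were rarer. *tcf15* ran from 13.4 to 22.3 CPM in control and from 2.12 to 8.81 CPM in spt_cMO. *tbx6*, at 0.851 to 3.57 CPM in control and 0 to 1.96 CPM in spt_cMO, was too rare to be tested.

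The clock genes did not move together. *her11* and *her1* fell in spt_cMO, *her15.2* rose, and *her7* and *hes6* did not pass the test. *her12* and *her4.1* were higher in all 5 same-numbered pairs of libraries. So were *her15.2* and, outside the list, *her2*, *her4.2* to *her4.5*, *her6* and *her8a*. No share over all tested records was taken for such pairs, and the *her4* copies may share reads. *her12* and *her4.1* passed where the replicate number entered the model. Without it, 2 of the 7 genes were called lower and 1 higher by edgeR's quasi-likelihood test at an adjusted p of 0.05, where 0.974% of all tested records were called lower, 0.807% higher and 1.78% in either direction. When the replicate number was added as a block, calls were 2 lower and 3 higher, against 1.42% and 1.34% of all records and 2.75% in either direction. The clock genes were chosen with earlier results of these data known. The counts and shares are therefore a description and no test of the list. These are bulk samples, in which fewer cells of a type and less RNA per cell cannot be told apart.

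**Figure D1:**
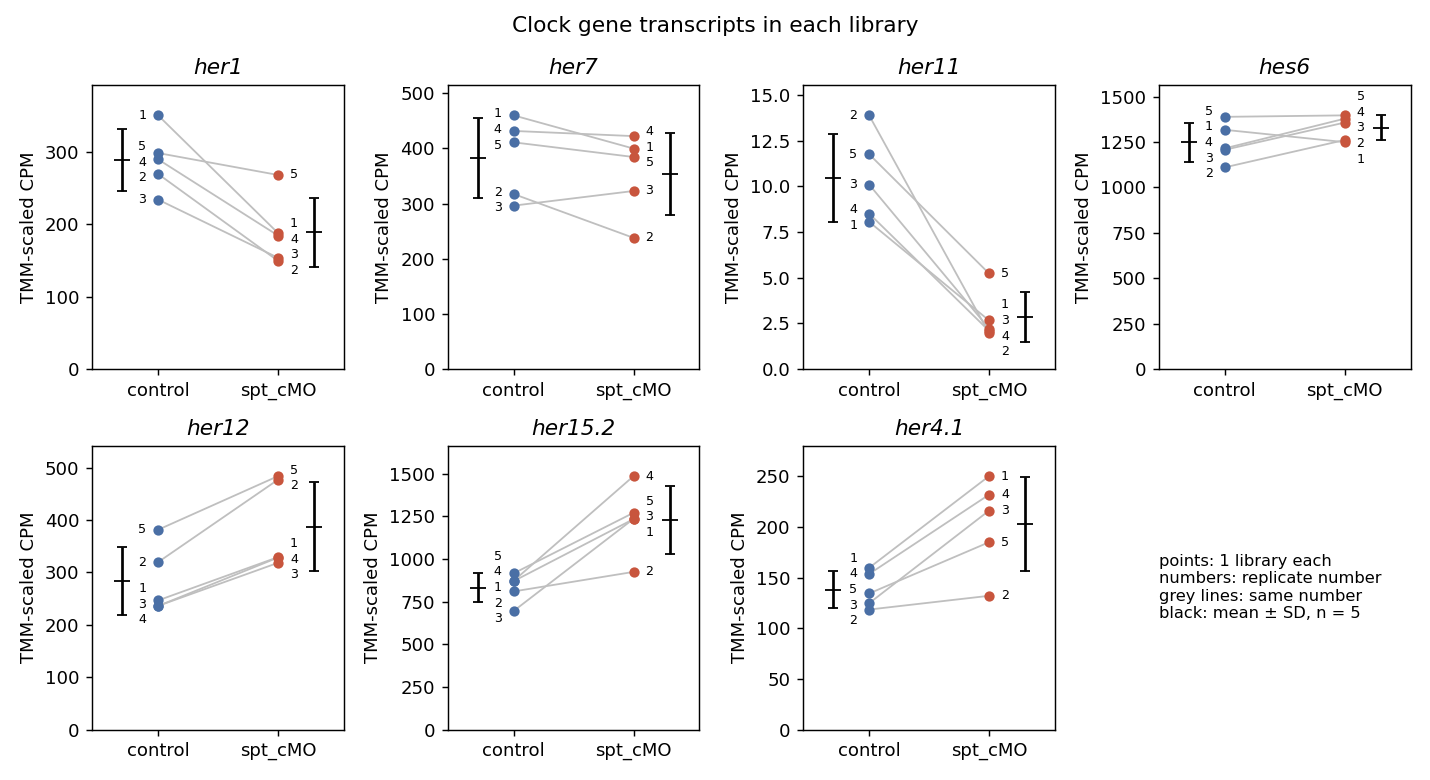
TMM-scaled CPM of the 7 clock genes in each control (blue) and spt_cMO (red) library, with replicate numbers beside the points, grey lines joining libraries of the same number and black bars for mean ± SD (n = 5). Groups are separated in *her11* and *her15.2*; in *her1* the spt_cMO library numbered 5, at 268 CPM, lies within the control range of 234 to 350 CPM.

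*her1*, a core repressor of the oscillator, was counted at 350, 269, 234, 289 and 298 CPM in control libraries 1 to 5 and at 188, 149, 153, 184 and 268 CPM in spt_cMO libraries 1 to 5. The first 4 spt_cMO libraries lay below every control library and the library numbered 5 lay within the control range. Mean *her1* fell: it was 288 CPM ± 42.6 (SD, n = 5) in control and 188 CPM ± 47.7 in spt_cMO. Its log2 fold change was -0.61 (SE 0.15, adjusted p = 0.0455). The call stood just inside the threshold: without control replicate 1 it was lost (log2 fold change -0.53, adjusted p = 0.118), as it was in 8 of the 10 fits that left out a library, the exceptions being those without control replicate 3 or spt_cMO replicate 5. With the replicate block the log2 fold change was -0.63 (SE 0.11, adjusted p = 0.00098), and it passed in all 5 fits that left out a same-numbered pair (adjusted p up to 0.0107).

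*her7*, the partner of *her1* in the core loop, was counted at 460, 317, 296, 432 and 411 CPM in control libraries 1 to 5 and at 400, 238, 323, 422 and 385 CPM in spt_cMO libraries 1 to 5. The groups overlapped almost entirely, and in both groups the libraries numbered 2 and 3 were the lowest. Means were 383 CPM ± 72.4 in control and 353 CPM ± 74.5 in spt_cMO, with a log2 fold change of -0.11 (SE 0.16, 95% interval -0.48 to 0.25, adjusted p = 0.916). The replicate block gave -0.12 (SE 0.09) and no call (adjusted p = 0.718).

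*her1* and *her7* are immediate neighbours in the RefSeq gene table of assembly GRCz12tu, with no other annotated gene between them, yet their transcripts differed unequally between the groups. Within a library, the log2 ratio of *her7* to *her1* was 0.40 ± 0.13 (SD, n = 5) in control and 0.91 ± 0.30 in spt_cMO. It ran from 0.24 to 0.58 in control and from 0.52 to 1.2 in spt_cMO, so that 1 spt_cMO library overlapped, and it was higher in 5 of 5 same-numbered pairs. The difference of 0.51 passed a 2-sided exact permutation test over all assignments of the libraries to the groups (p = 0.0159, adjusted p = 0.0265 over the 5 ratios compared). Without control replicate 1, 2, 3 or 5 it did not pass (adjusted p = 0.0661 each, with differences between 0.47 and 0.52).

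*hes6*, also known as *her13.2*, encodes a family member that pairs with Her1 and is expressed without cycling under FGF control. It was counted at 1317, 1110, 1207, 1215 and 1388 CPM in control libraries 1 to 5 and at 1249, 1261, 1357, 1378 and 1397 CPM in spt_cMO libraries 1 to 5. The ranges overlapped, with only spt_cMO replicate 5 above all controls. The log2 fold change was 0.09 (SE 0.09, 95% interval -0.11 to 0.29, adjusted p = 0.876). Of the 7 genes it varied least within groups, with a standard deviation of 0.10 on the log2 CPM scale, where the median over all tested records was 0.25. It was also the most abundant of the 7, at a mean log2 CPM of 10.3, and that median is not matched for abundance. Relative to *hes6*, *her1* was lower: the log2 ratio of *hes6* to *her1* was 2.12 ± 0.18 in control and 2.85 ± 0.30 in spt_cMO, without overlap (difference 0.73, exact permutation p = 0.00794, the smallest the design allows; adjusted p = 0.0198). The gap was narrow, as control reached 2.37 and spt_cMO began at 2.38. The ratios of *hes6* and of *her7* to *her1* share *her1*, so they are not independent of its lower value or of each other.

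*her11*, also known as *him*, is a presomitic family member linked to the oscillator. It had few counts, 32, 111, 34, 40 and 85 in control libraries 1 to 5 and 25, 4, 6, 8 and 13 in spt_cMO libraries 1 to 5. Scaled to library size these were 8.06, 13.9, 10.1, 8.51 and 11.8 CPM in control and 2.65, 1.96, 2.21, 2.09 and 5.23 CPM in spt_cMO. Every spt_cMO library lay below every control library, and the spt_cMO library numbered 5 was again the highest of its group. Mean *her11* fell from 10.5 CPM ± 2.41 to 2.83 CPM ± 1.37, which is 3.70-fold lower, and its log2 fold change was -1.93 (SE 0.27, adjusted p = 0.000279). The call held without each library (log2 fold change -2.18 to -1.79, adjusted p up to 0.00256).

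*her11* fell further than *her1*. The log2 ratio of *her11* to *her1* was -4.74 ± 0.45 in control and -5.91 ± 0.23 in spt_cMO, without overlap (difference -1.17, exact permutation p = 0.00794, adjusted p = 0.0198). The immediate neighbour of *her11* in the gene table is *her5*, also a family member. It was too rare to be tested, with 94 counts over the control libraries and 60 over the spt_cMO libraries, and at 1.26 to 9.21 CPM and 1.96 to 3.71 CPM the groups overlapped.

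*her15.2*, a Notch target that cycles in the presomitic mesoderm, was counted at 871, 810, 696, 872 and 916 CPM in control libraries 1 to 5 and at 1234, 925, 1236, 1486 and 1271 CPM in spt_cMO libraries 1 to 5. All 5 spt_cMO libraries lay above all 5 control libraries, the library numbered 2 by the smallest margin. *her15.2* and *her11* were the 2 of 7 clock genes whose groups did not overlap, as in 3.06% of all tested records. The mean of *her15.2* rose from 833 CPM ± 85.6 to 1231 CPM ± 200.4, 1.48-fold higher, with a log2 fold change of 0.56 (SE 0.12, adjusted p = 0.0118), and the call held without each library (adjusted p up to 0.0404). *her15.1* is the next gene in the table and *her15* copies are closely related, so reads of both could stand under the *her15.2* record and its value is uncertain as that of a single gene.

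*her4.1*, a Notch target of the neural plate that is also expressed in presomitic mesoderm, was counted at 160, 119, 125, 154 and 134 CPM in control libraries 1 to 5 and at 250, 132, 216, 232 and 185 CPM in spt_cMO libraries 1 to 5. In spt_cMO 4 libraries lay above all controls and the library numbered 2 lay among them. The log2 fold change of 0.56 (SE 0.15) did not pass (adjusted p = 0.0656). With the replicate block it was 0.53 (SE 0.10) and passed (adjusted p = 0.00289). Leaving out spt_cMO replicate 2 gave a call with no block (0.68, adjusted p = 0.00236).

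The 5 *her4* copies, *her4.1* to *her4.5*, stand beside each other in the gene table, and reads of 1 copy may have been assigned to another. All 5 had a positive log2 fold change, from 0.29 for *her4.4* to 0.56 for *her4.1*. Of these *her4.3* passed without the block, rising from 105 CPM ± 4.93 to 145 CPM ± 21.2 at an adjusted p of 0.0231 (log2 fold change 0.47, SE 0.11), a call that was lost without control replicate 5 (adjusted p = 0.077) and without control replicates 1, 3 or 4 or spt_cMO replicates 1, 3 or 5. With the block it passed (adjusted p = 0.0175). *her4.5* did not pass (log2 fold change 0.34, adjusted p = 0.0965) although its groups did not overlap. Summed into 1 feature, the copies rose from 487 CPM ± 33.0 to 655 CPM ± 74.3, with a log2 fold change of 0.43 (SE 0.10, adjusted p = 0.0252). In the sum the spt_cMO library numbered 2, at 526 CPM, lay just below the highest control, at 528 CPM.

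*her12*, a further cycling gene and the neighbour of the *her4* copies in the gene table, was counted at 247, 320, 236, 236 and 382 CPM in control libraries 1 to 5 and at 329, 477, 318, 328 and 484 CPM in spt_cMO libraries 1 to 5. The groups overlapped, and in both the libraries numbered 2 and 5 were the highest. Between same-numbered libraries the log2 difference was 0.42, 0.58, 0.43, 0.48 and 0.34 for numbers 1 to 5, the narrowest range of the 5 genes that passed with the block. The log2 fold change was 0.44 (SE 0.17) and did not pass (adjusted p = 0.336). With the replicate block it was 0.45 (SE 0.09) and passed (adjusted p = 0.00374), as in all 5 fits that left out a pair (adjusted p up to 0.022).

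Among the genes with higher values no unequal difference was detected. The log2 ratio of *her4.1* to *her15.2* was -2.59 ± 0.16 in control against -2.61 ± 0.21 in the other group (exact permutation p = 0.81, adjusted p = 0.81). That of *her12* to *her15.2* was -1.57 ± 0.28 and then -1.68 ± 0.50 (exact permutation p = 0.683, adjusted p = 0.81). A ratio that misses the threshold does not show that the 2 genes changed alike.

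**Figure D2:**
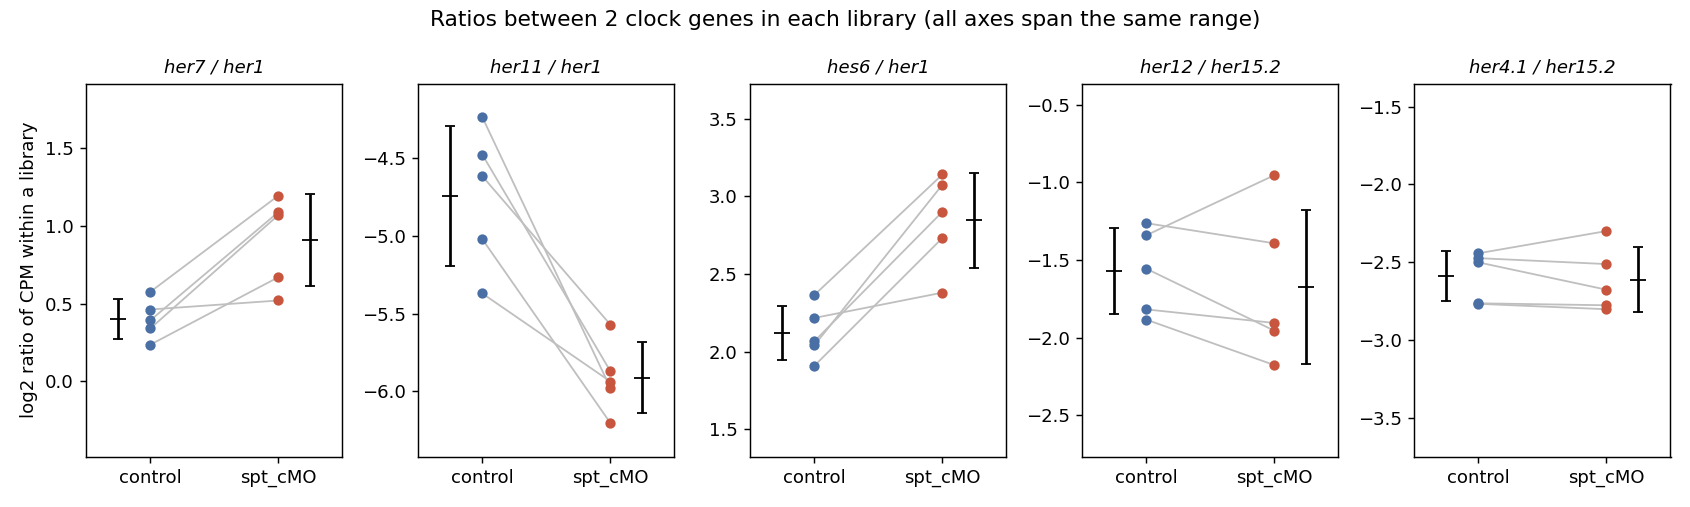
Log2 ratio of 2 clock genes within each library (TMM-scaled CPM, prior count 2), control in blue and spt_cMO in red, with grey lines for the same replicate number and black bars for mean ± SD (n = 5). The first 3 ratios, to *her1*, moved by 0.51, -1.17 and 0.73. The ratio of *her7* to *her1* and the 2 ratios to *her15.2* overlapped between groups.

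Beyond the listed genes, 18 other records of the *her*, *hes* and *hey* family were in the table and 11 were tested. All 11 had a positive log2 fold change, from 0.14 to 0.47 with a median of 0.34, where 50.3% of all tested records were positive and their median was 0.00105. Of the 11, *her4.3* passed by edgeR's quasi-likelihood test, with and without the block, and the other 10 in neither fit. Of all tested records 0.807% were called higher without the block and 1.34% with it. *her4.5* passed with DESeq2 (log2 fold change 0.34, adjusted p = 0.0291), and *her2* with the block, the likelihood ratio test and the CPM filter together (0.36, adjusted p = 0.047). Of all 18 tested family records, 15 were positive, and the 3 negative ones were *her1*, *her7* and *her11*. For these 18 records the signs were the same under every alternative normalization, filter and test tried and without each library. The 7 untested family records are not covered, and a looser filter admits more negative ones. *her5*, which was not tested here, stood at -0.37 in the authors' deposited table (adjusted p = 0.878). The family genes share relatives with similar sequence and several are copies, so they are not independent of each other.

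Of the family genes that did not pass the quasi-likelihood test, *her2*, the neighbour of the *her15* copies, was counted at 598 CPM ± 148 in control and 756 CPM ± 120.3 in spt_cMO (log2 fold change 0.34, SE 0.16). *her6*, a relative of mammalian *Hes1*, was counted at 980 CPM ± 194 and 1156 CPM ± 239 (log2 fold change 0.24, SE 0.15). *her9*, another *Hes1* relative, was counted at 484 CPM ± 117 and 580 CPM ± 207 (0.26, SE 0.25), and in both groups its libraries numbered 1 and 4 were the lowest. *her8a* had a log2 fold change of 0.34 (SE 0.13), *her3* of 0.27 (SE 0.35), *hey1* of 0.14 (SE 0.14) and *hey2* of 0.37 (SE 0.29). The adjusted p ran from 0.346 for *her8a* to 0.908 for *her3* (edgeR's quasi-likelihood test).

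The other 7 family records were too rare to be tested. Among them *heyl* had 5, 13, 8, 7 and 14 counts in control libraries 1 to 5 and 1, 0, 5, 2 and 1 in spt_cMO libraries 1 to 5. That is 1.26 to 2.38 CPM in control and 0 to 1.84 CPM in spt_cMO, with 47 counts over the control libraries and 9 over the spt_cMO libraries. In spt_cMO 4 libraries lay below every control library, and the library numbered 3 lay within the control range. *her13* and *her8.2* had at most 2 counts in any library.

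**Figure D3:**
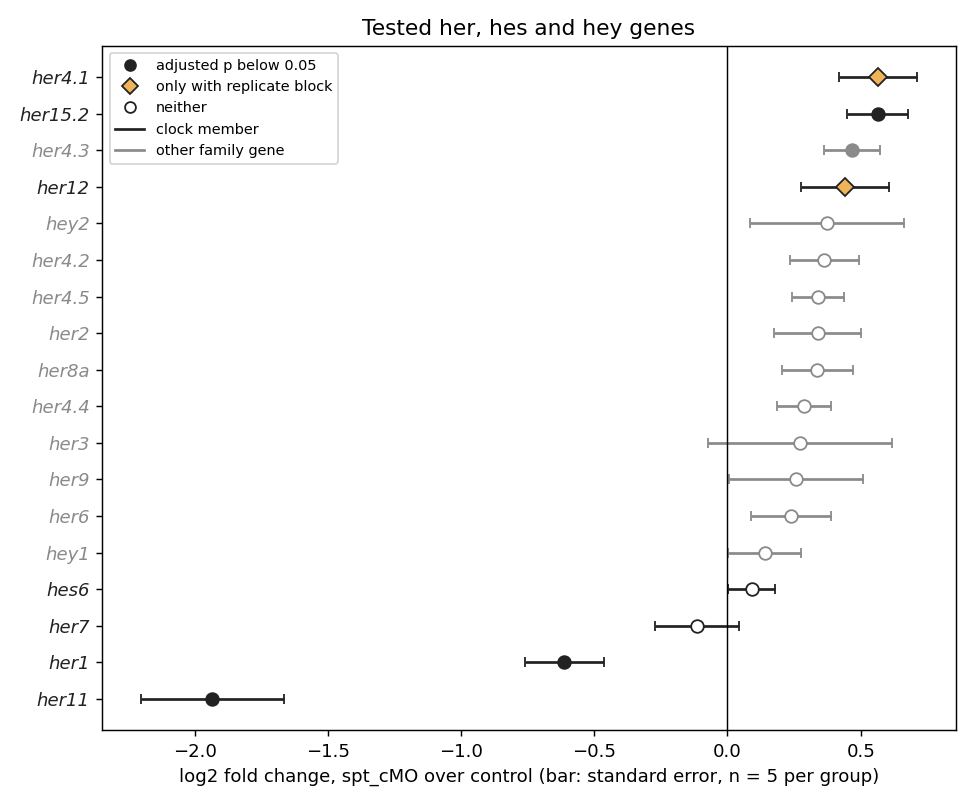
Log2 fold change (spt_cMO over control, bars for the standard error, n = 5 per group) of the 18 tested family records, clock genes in black and others in grey; filled circles passed the test, diamonds passed with the replicate block alone. *her11* and *her1* lie at -1.93 and -0.61, and 15 records lie above 0.

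In the Notch pathway, which couples the oscillator between cells, the receptor gene *notch2* fell and the modifier gene *lfng* rose. Over all tested records 0.974% were called lower and 0.807% higher, and 620 of 6570 had an unadjusted p below 0.05. None of 5 tested ligands passed by edgeR, with or without the block, or by DESeq2, and 1 had an unadjusted p below 0.05, numbers too small to set a list of 5 apart from that background. Of the ligands of the presomitic clock, *dlc* ran from 94.2 to 119 CPM in control and from 83.8 to 125 CPM in spt_cMO. The other, *dld*, was counted at 45.5 CPM ± 6.29 in control and 42.6 CPM ± 3.71 in spt_cMO. The ligand gene *jag1b* had 3.47 CPM ± 1.94 and 7.02 CPM ± 1.41, groups that did not overlap, as in 3.06% of all tested records (log2 fold change 0.99, SE 0.33, adjusted p = 0.213, and 0.0628 with the block). Its counts were few, and control library 3 held 2 of them, below the floor of 3 counts.

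Of 3 tested receptors, 1 fell, where 0.974% of all tested records did: *notch2* had 29.6 CPM ± 3.61 in control and 16.0 CPM ± 2.84 in spt_cMO, with a log2 fold change of -0.90 (SE 0.15, adjusted p = 0.00173). *notch1a* was counted at 39.9 CPM ± 9.37 and 44.4 CPM ± 14.8, and *notch3* at 30.3 CPM ± 5.44 and 42.4 CPM ± 13.4 (log2 fold change 0.46, adjusted p = 0.348). Of 18 tested modifiers and transduction genes, *lfng*, a glycosyltransferase that modifies Notch receptors, rose from 257 CPM ± 48.2 to 419 CPM ± 63.8, with a log2 fold change of 0.70 (SE 0.13, adjusted p = 0.00461). With the block *tle2a*, a Groucho-type corepressor of the kind that Her proteins recruit, also passed (log2 fold change 0.40 without and adjusted p = 0.0459 with the block). Calls higher were thus 1 of 18 without the block and 2 with it, where 0.807% and 1.34% of all tested records were. An unadjusted p below 0.05 was met by 2 of the 18 and by 620 of all 6570 tested records. *rbpja*, a DNA-binding mediator of Notch signals, was counted at 80.6 CPM ± 2.91 and 81.9 CPM ± 7.62, and *nrarpa*, a Notch target that dampens the signal, at 2367 CPM ± 341 and 2159 CPM ± 293.

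Regulators of segmentation in the presomitic mesoderm moved mainly down. Of 14 tested genes 8 fell, 2 rose and 4 did not pass, with a median log2 fold change of -0.81. Of all tested records 0.974% were lower and 0.807% higher, and their median was 0.00105. With the block 9 of the 14 were lower and 3 higher, against 1.42% and 1.34% of all records. Those that fell without it were *ripply2*, *pcdh8*, *tcf15*, *msgn1*, *foxc1a*, *foxc1b*, *tbx16l* and *dact2*, with log2 fold changes from -2.10 to -0.71, and those that rose were *fgf8a* and *tbxta*. The list holds genes known from earlier results of these data to have fallen, so it is a description. *ripply2*, a corepressor that ends the cycles at segment borders, fell from 13.4 CPM ± 3.31 to 3.15 CPM ± 1.28, with a log2 fold change of -2.10 (SE 0.25). *mespab*, which sets segment polarity, did not pass (46.2 CPM ± 13.4 and 27.3 CPM ± 12.7, adjusted p = 0.414) and did with the block (adjusted p = 0.00386). *mespaa*, its relative, was counted at 39.5 CPM ± 14.0 and 33.3 CPM ± 9.66 (adjusted p = 0.885). Of the genes that rose, *fgf8a*, whose product keeps presomitic cells immature, went from 183 CPM ± 16.0 to 289 CPM ± 41.2.

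The stability of *her* transcripts is part of the timing of the clock. Of 6 tested genes for messenger decay and small RNA processing none passed by edgeR, with or without the block, or by DESeq2, and 1 had an unadjusted p below 0.05. Over all tested records 1.78% were called by edgeR, 2.75% with the block, and 620 of 6570 had an unadjusted p below 0.05. These counts are too small to set a list of 6 apart from that background. *pnrc2*, which is needed for rapid decay of *her1* transcripts in zebrafish, was counted at 2801 CPM ± 255 in control and 2516 CPM ± 330 in spt_cMO (log2 fold change -0.15, SE 0.10, adjusted p = 0.756).

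**Figure D4:**
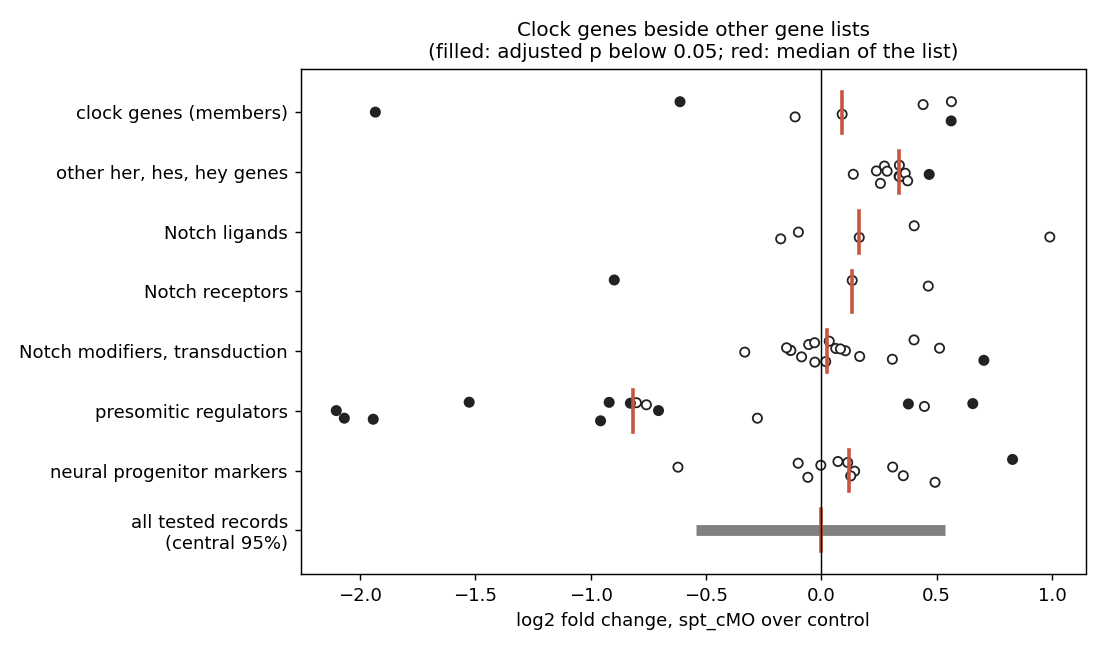
Log2 fold change of every tested gene in the clock list and in 6 other lists, filled where the adjusted p was below 0.05, with the list's median in red and the central 95% of all 6570 tested records as a grey bar from -0.54 to 0.54. The presomitic list has its median at -0.81, and the other family genes lie between 0.14 and 0.47.

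Markers of other cell types were read beside the clock genes. The 6 paraxial mesoderm markers summed to 5863 to 7972 CPM in control and 2306 to 3772 CPM in spt_cMO. Of 5 tested 3 fell, *msgn1*, *tbx16l* and *tcf15*, where 0.974% of all tested records did. These 3 also stand in the list of presomitic regulators above, chosen with earlier results known, and are no separate result. Most of the sum was *msgn1*, at 4633 to 6650 CPM in control and 1382 to 2820 CPM in spt_cMO. Markers of the list did not all move this way: *tbx16* was higher with the block (adjusted p = 0.0172) and *mespaa* did not pass (adjusted p = 0.885). The summed level was lower in spt_cMO, as *her1* and *her11* were, and its part in their values was not tested. The 20 neural progenitor markers, a tissue in which *her4* and *her15* copies are also expressed, summed to 791 to 1017 CPM in control and 899 to 1090 CPM in spt_cMO. Of 12 tested 1 rose, where 0.807% of all tested records did: the progenitor factor *sox2*, from 43.1 CPM ± 4.13 to 76.7 CPM ± 7.77. Of the 12, 8 had a positive log2 fold change. An unadjusted p below 0.05 was met by 3 of them and by 620 of all 6570 tested records. *zic2a* went the other way, with 156 CPM ± 35.9 in control and 103 CPM ± 35.9 in spt_cMO (log2 fold change -0.62, adjusted p = 0.376 by edgeR). The 8 defining neural markers summed to 19.9 to 53.5 CPM and 33.1 to 61.2 CPM, overlapping ranges. None of 4 tested passed by edgeR, with or without the block, or by DESeq2 or at an unadjusted p of 0.05. A list of 4 is too small to be set apart from the shares over all tested records. *elavl3*, a gene of differentiating neurons, did not exceed 3 counts in any library. The part of neural cells in the values of *her15.2* and *her4.1* was not tested.

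Of the remaining marker lists, 1 of 4 tested notochord markers rose (*shha*, from 1.81 CPM ± 1.17 to 6.23 CPM ± 2.04), where 0.807% of all tested records did. With the block, and with DESeq2, 2 of the 4 were higher: *cnmd*, at 2.19 CPM ± 2.03 in control and 8.21 CPM ± 3.19 in spt_cMO, did not pass without the block (log2 fold change 1.68, SE 0.49, adjusted p = 0.155) and did with it (adjusted p = 0.00733), and it was higher in 5 of 5 same-numbered pairs. Of all tested records 1.34% were called higher with the block, and 83 of 6570 with DESeq2. Both *shha* and *cnmd* had low control means, where 3 counts were worth 0.376 to 0.891 CPM in control libraries. They passed the filter on low counts only with the help of spt_cMO libraries, where they were higher. The shares over all tested records are therefore not a like background for them. The part of notochord cells in the values of the clock genes was not tested. In another list 1 of 4 lateral mesoderm markers fell (*osr1*, from 92.5 CPM ± 9.77 to 67.5 CPM ± 7.30), where 0.974% of all tested records did. None of the 3 endoderm, 7 epidermis, 3 germ cell and 5 p53 response records tested passed by edgeR, with or without the block, or by DESeq2, and none had an unadjusted p below 0.05. Of all tested records 1.78% were called by edgeR and 620 of 6570 had an unadjusted p below 0.05. Lists of 3 to 7 records are too small to be set apart from that background. The summed notochord markers ran from 20.9 to 39.2 CPM in control and 33.1 to 49.4 CPM in spt_cMO, and the p53 response genes from 758 to 1119 CPM and 795 to 1068 CPM.

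The genes with the most similar profiles over the 10 libraries were found by the root mean square distance between log2 CPM values, each centred on its own mean. For *her11* they were *tpd52l2a* (distance 0.40), *msgn1* (0.41) and *hhip* (0.41), where the median distance to all compared records was 0.996. For *her1* they were *rpp40* (0.18), *prtga* (0.21) and *efemp2b* (0.21), with a median of 0.45, and none of these 3 passed the test of the groups. For *her15.2* they were the tubulin genes *tuba1b* (0.14) and *tuba1a* (0.15) and *rfc3* (0.16), with a median of 0.39. Both tubulin genes rose, with log2 fold changes of 0.61 and 0.62. The 3 clock genes shared none of these nearest profiles. The distance includes the difference between the groups, on which the 3 genes were called. With log2 fold changes of -1.93 for *her11*, -0.61 for *her1* and 0.56 for *her15.2*, a shared neighbour was unlikely from the start, so its absence adds nothing.

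In the authors' deposited table, a comparison of the same libraries with 6923 records, 5 of the 7 clock genes passed, 3 higher and 2 lower, where 3.58% of its records had an adjusted p below 0.05, 1.83% higher and 1.75% lower. As the clock genes were chosen with earlier results of these data known, these numbers too are a description. The log2 fold change of *her1* was -0.63 (adjusted p = 1.51e-05) and that of *her11* -1.83 (adjusted p = 1.41e-09) in the authors' deposited table. There *her12* stood at 0.45 (adjusted p = 9.27e-05), *her15.2* at 0.56 (adjusted p = 8.91e-05) and *her4.1* at 0.54 (adjusted p = 0.000209) in the authors' deposited table. Of the other family genes, *her4.3* (0.47, adjusted p = 0.00927) and *her2* (0.36, adjusted p = 0.0353) passed in the authors' deposited table. *her7* and *hes6* did not pass there (adjusted p = 0.803 and 0.856 in the authors' deposited table). Its log2 fold changes differed by at most 0.225 from the likelihood ratio fit with the CPM filter and the replicate block. Against the same fit with the group alone the largest difference was 0.487. The authors' calls of *her12* and *her4.1* may thus not be separate from those made with the block.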

How the data were processed

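RNA from sorted cells was measured by CEL-seq in 10 libraries, 5 per group, from total RNA with integrity numbers of 8.1 to 9.9. The authors deposited unnormalised read counts for each RefSeq transcript. The series' design text gives Zv8 as the assembly and Galaxy, with the submitters' CEL-seq scripts, as the pipeline; the aligner's name and the use of strand are not given in the sources used here. No molecular identifiers are named in the labels, so the floor of 3 counts covers counting error only. Library totals ran from 2036973 to 9374914 counts. The authors' deposited comparison, made with edgeR per the submitters' processing notes, holds log2 values (fold change and mean CPM), a likelihood ratio as a score, and its p-value, raw and adjusted. Its 6923 records are those above 2 CPM in at least 5 libraries.

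Gene symbols were matched through RefSeq's table for GRCz12tu (13986 of 14720 records matched), used for names and neighbours. The test used edgeR 4.0.16 in R 4.3.3: filterByExpr (minimum count 10, total 15, proportion 0.7), TMM scaling and the robust quasi-likelihood test, 2-sided, with Benjamini-Hochberg adjustment over 6570 records at 0.05. The standard error comes from the F statistic. Ratios of 2 genes used log2 CPM with a prior count of 2. Libraries of a group all differed beyond counting noise, with a chi-square of 7.44 to 23.7 per degree of freedom.

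Replicate numbers 1 to 5 occur in both groups, and the labels speak of biological replicates. Over all tested records, deviations from the group means of same-numbered libraries correlated at 0.136, 0.251, 0.119, 0.203 and 0.147, all above the 0.1 taken to pair them. Yet spt_cMO replicate 1 correlated better with a control of another number (0.196), and control replicate 3 with another spt_cMO library (0.144). A fit with the number as a block is given where it changes a call. The members and gene lists were chosen with earlier results of these data known. Named genes are the clock genes, tested family genes, in each other list the genes that passed and at most 4 others, and the 3 nearest profiles (mean log2 CPM of at least 3) of each clock gene that passed. Alternatives were other scalings, filters, prior counts and tools (DESeq2 1.42.0), the block, summed *her4* copies and each library left out. Protein and promoter comparisons and a sum of *her15* copies were not made.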

Additional observations from a re-analysis of the deposited data

Results flagged for a closer look

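Of 36 groups of 5 libraries looked at (18 tested family genes in both conditions), 3 held a library far from the other 4 by Dixon's criterion, which chance alone meets in about 1 in 20 groups. *her11* in spt_cMO replicate 5 was 5.23 CPM, where the other 4 spt_cMO libraries lay between 1.96 and 2.65 CPM; without that library the log2 fold change was -2.18 (adjusted p = 0.000116). *her3* in control replicate 4 was 2.77 CPM, below 4.79 to 5.51 CPM in the other controls. *her4.2* in control replicate 3 was 39.8 CPM, above 34.7 to 36.0 CPM in the other controls.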

How the results depend on the processing

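*her11*, *her15.2*, *her7* and *hes6* kept their direction and their side of the threshold in all 22 refits each, with log2 fold changes of -2.18 to -1.67, 0.49 to 0.65, -0.19 to -0.0029 and 0.053 to 0.14. *her1* was negative in all 22 and lost its call with DESeq2's size factors in edgeR (-0.61, adjusted p = 0.0503) and with library totals alone (-0.60, adjusted p = 0.0559), each leaving 1 clock gene called lower. *her4.1* passed with DESeq2's own test (0.56, 83 records higher) and with no filter on low counts (0.55), each giving 2 clock genes higher; the cause was not tested. The replicate block called 181 records, 88 of them higher, and 3 clock genes higher (*her12* 0.45, *her4.1* 0.53), and held all 117 records called without it. With the block, the likelihood ratio test and the CPM filter, 229 records were called, 113 higher and 116 lower, and 3 clock genes higher (*her12* 0.45, *her4.1* 0.54). The block with 1 same-numbered pair left out, an alternative chosen after seeing the data, called 3 clock genes higher each time, with *her12* at 0.46, 0.42, 0.45, 0.45 and 0.47 and *her4.1* at 0.50, 0.62, 0.47, 0.52 and 0.55 without numbers 1 to 5; without number 2 it called 199 records, 94 higher and 105 lower. *her4.3* failed in 4 of these 5 fits (adjusted p up to 0.157). The summed *her4* copies gave 0.43, and 0.42 with the block.

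Leaving out each library gave 84 to 126 records called, 36 to 56 higher and 45 to 70 lower, 1 to 2 clock genes higher and 1 to 2 lower, *her1* -0.77 to -0.53, *her12* 0.35 to 0.57 and *her4.1* 0.48 to 0.68. The ratio of *her7* to *her1* ran from 0.44 to 0.60, that of *her11* to *her1* from -1.32 to -1.04 and that of *hes6* to *her1* from 0.65 to 0.84. The uncalled ratio of *her12* to *her15.2* ran from -0.29 to 0.020, changing sign without spt_cMO replicate 4 (0.020), and that of *her4.1* to *her15.2* from -0.10 to 0.02, changing sign without control replicate 1 (0.013) or 3 (0.0054) or spt_cMO replicate 2 (0.024) or 5 (0.017). Under the block, as exact sign flips of 5 same-numbered differences, the ratios of 0.51, -1.17 and 0.73 to *her1* could not pass, since the smallest p that 5 pairs allow is 0.0625 (adjusted p = 0.104). The ratio of *her11* to *her1* also depended on the prior count, as *her11* had few counts. It was -1.29 with a prior count of 0.5 and -0.98 with 5, and passed with both (exact permutation, adjusted p = 0.0198 each). Summing *her15.1* with *her15.2* was not run, as *her15.1* was not analysed here. The depth of the shallowest library, where 3 counts are 1.47 CPM, limits *her11* and rarer genes.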

Other observations

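The spt_cMO library numbered 5 had the highest value of its group in 4 of the 7 clock genes, *her1*, *her11*, *her12* and *hes6*. It was also the highest in 9 of 14 tested regulators of segmentation, *ripply1*, *ripply2* and *mespab* among them, and in 21.6% of all tested records. *ripply1*, a corepressor related to *ripply2*, was counted at 7.32, 21.0, 16.6, 8.87 and 35.8 CPM in spt_cMO libraries 1 to 5 and between 25.1 and 31.9 CPM in control. *dlc*, a ligand of the clock, was at 125 CPM in that library and between 83.8 and 87.1 CPM in the other spt_cMO libraries. These genes were chosen after their values were seen, and no test was made of this library.

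The libraries numbered 1 and 4 were the highest 2 of their group for *her4.1*, *her7*, *her2* and *her6* in both conditions, and the lowest 2 for *her9* in both. The genes were picked after their values were seen, and no share over all tested records was taken. *her6* was counted at 1164 and 1208 CPM in control libraries 1 and 4 and at 796 to 913 CPM in the other controls, and at 1334 and 1487 CPM in spt_cMO libraries 1 and 4 and at 962 to 1004 CPM in the others. *her9* was at 343 and 389 CPM in control libraries 1 and 4, and at 428 and 348 CPM in the same spt_cMO numbers, with 499 to 615 CPM and 600 to 880 CPM in the other libraries of the groups. The labels do not say what libraries of the same number share.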
